A study of Mus musculus with 54 samples.

Results

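The swim response of spleen was set against that of liver in 15 of the 54 arrays of the series, chosen by their labelled organ. They were 4 spleen arrays from control mice, 4 spleen arrays from mice that swam, 3 liver arrays from control mice and 4 liver arrays from mice that swam. All mice were labelled C57BL6, an inbred strain, and 14 weeks of age. Training began at 11 to 12 weeks of age with 9 days of acclimation, in which sessions were lengthened by 10 min at a time. Over the following 3 weeks the mice swam in 2 sessions of 90 min on each day, separated by a rest of 4 hours. The labels do not say how control mice were handled, when after the last session organs were taken, or whether a spleen and a liver came from the same mouse. Arrays were therefore treated as independent, and the p-values measure only the spread between these arrays. Total RNA of whole organs was hybridised to Affymetrix arrays, and levels below are log2(intensity + 16) after quantile normalization within each organ. A change is the mean level with swimming less the mean level in controls, with its standard error (SE) from limma, and a difference between organs is the spleen change less the liver change. A gene rose or fell where its Benjamini-Hochberg adjusted p over 12644 genes was under 0.05. Arrays are named by the numbers in their labels, and level values are listed in the order of those numbers, which are 25 to 28 and 29 to 32 for control and swim spleen, and 49, 50, 52 and 53 to 56 for control and swim liver.

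Spleen and liver both hold resident macrophages. Those of the splenic red pulp clear aged erythrocytes, those of the marginal zone take up particles from blood, and the Kupffer cells of the liver sinusoids clear particles and bacteria from portal blood. Type I interferon acts on nearly every cell and switches on antiviral genes, many of which carry the interferon-stimulated response element in their promoters. Neutrophils store antimicrobial proteins in granules, whose transcripts are made mainly in their precursors, and hepatocytes release acute phase proteins when interleukin-6 activates STAT3.

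Markers of both organs stood where the labels put them. The B cell gene Cd79a lay between 10.89 and 11.17 in the spleen arrays and between 4.48 and 5.20 in the liver arrays, and Alb, which encodes albumin of hepatocytes, lay between 13.30 and 13.49 in the liver arrays. In spleen, however, Alb read 4.97, 12.11, 9.77 and 4.61 in control and 9.64, 5.67, 9.98 and 6.18 in swim arrays. Control array 26 was highest and both groups overlapped. Other hepatocyte transcripts followed, such as the urea cycle gene Cps1 at 4.83, 8.95, 6.44 and 4.69 in control spleen. Saa2, an acute phase gene, read 4.90, 10.49, 11.18 and 5.01 in control and 5.06, 4.91, 5.03 and 5.20 in swim spleen, so it was high in control arrays 26 and 27 alone. In liver, the muscle gene Ckm read 8.32 in control array 52 and between 5.66 and 6.01 in the other 6 arrays. The exocrine pancreas gene Cela1 ranged from 6.34 to 8.65 in spleen. Erythroid genes averaged between 10.10 and 10.56 in control spleen and 8.69 and 9.00 in swim arrays 31 and 32, against 9.92 and 10.44 in the other 2. The median probe set intensity of an array lay between 49.48 and 96.32. Counts that rest on these arrays are given with and without control arrays 26 (spleen) and 52 (liver).

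**Figure D1:**
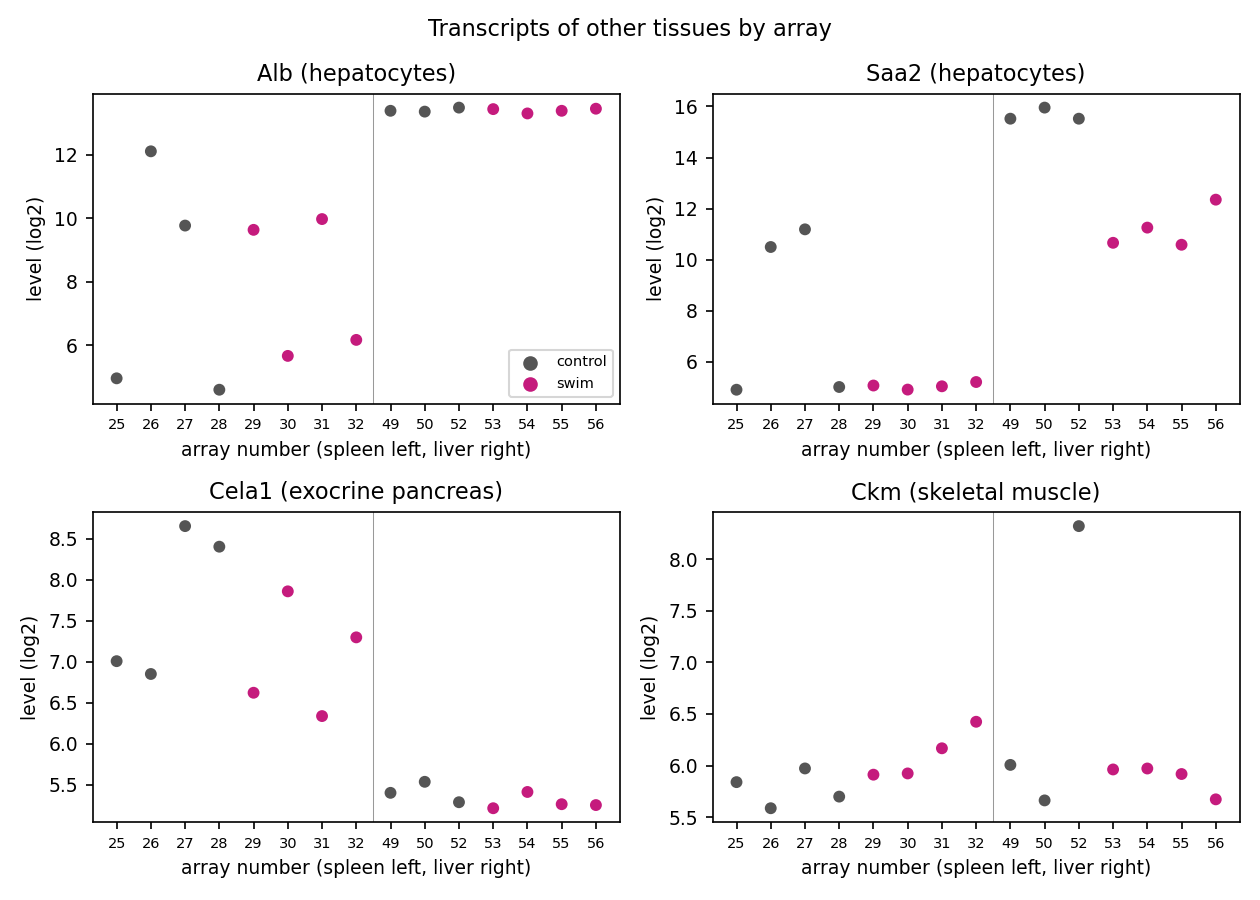
Levels (log2 of intensity + 16, quantile normalized within each organ) of Alb, Saa2, Cela1 and Ckm on each array, numbered as in the labels, with spleen left and liver right of the line; grey points are control and magenta points swim arrays. Alb reaches 12.11 in spleen control array 26 and Saa2 11.18 in array 27, and Ckm stands at 8.32 in liver control array 52.

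More genes passed in spleen than in liver, and few in both. The median SE of a change was 0.074 in spleen and 0.092 in liver, which had 1 control array fewer. In spleen 711 genes rose and 754 fell, which are 5.62% and 5.96% of those tested. In liver 175 rose and 223 fell, or 1.38% and 1.76%. Of the falls, 47 genes (0.372% of those tested) fell in both organs, which is 6.23% of the spleen falls and 21.1% of the liver falls. Of the rises, 17 genes (0.134%) were shared, or 2.39% of the spleen rises and 9.71% of the liver rises. The difference between the organs passed for 1207 genes (9.55%), 531 of them above 0 (4.2%) and 676 below 0 (5.35%). A fall in spleen with a difference below 0 was seen for 291 genes (2.3%) and a fall in liver with a difference above 0 for 101 (0.799%). A rise in spleen with a difference above 0 was seen for 220 genes (1.74%) and a rise in liver with a difference below 0 for 133 (1.05%). A total of 17 genes (0.134%) changed in opposite directions. As background for the statements on overlap below, swim arrays lay below all control arrays for 10.8% of genes in spleen, 10.4% in liver and 1.52% in both organs, and above all of them for 11.6%, 9.04% and 1.08%. Of the 12644 genes, 9905 were above the dim limit in both organs (the level below which 40% of probe sets lay), 1449 in spleen alone and 1290 in liver alone, and 950 of the 1207 differences lay in the first set.

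The scaling set the balance of rises and falls in spleen. Rises were 48.5% of the spleen calls, 22.6% with arrays centred on their medians (324 rises and 1108 falls) and 1.42% with the values as deposited (68 and 4732). The median change of all genes in spleen was -0.01 in the main scaling, -0.07 after centring and -0.26 as deposited, so spleen changes are relative to that shift. The share of differences above 0 was 44%, 25.5% and 8.33% in the same order. With arrays 26 and 52 left out together, a setting chosen after seeing the data, 674 genes changed in spleen, 517 in liver and 31 fell in both organs in place of 1465, 398 and 47. Calls also moved with other single arrays: 101 to 203 genes passed in liver without any 1 of control arrays 49 and 50 or swim arrays 53 to 56, and 449 to 797 in spleen without any 1 of control arrays 25 to 28 or swim arrays 31 and 32.

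**Figure D2:**
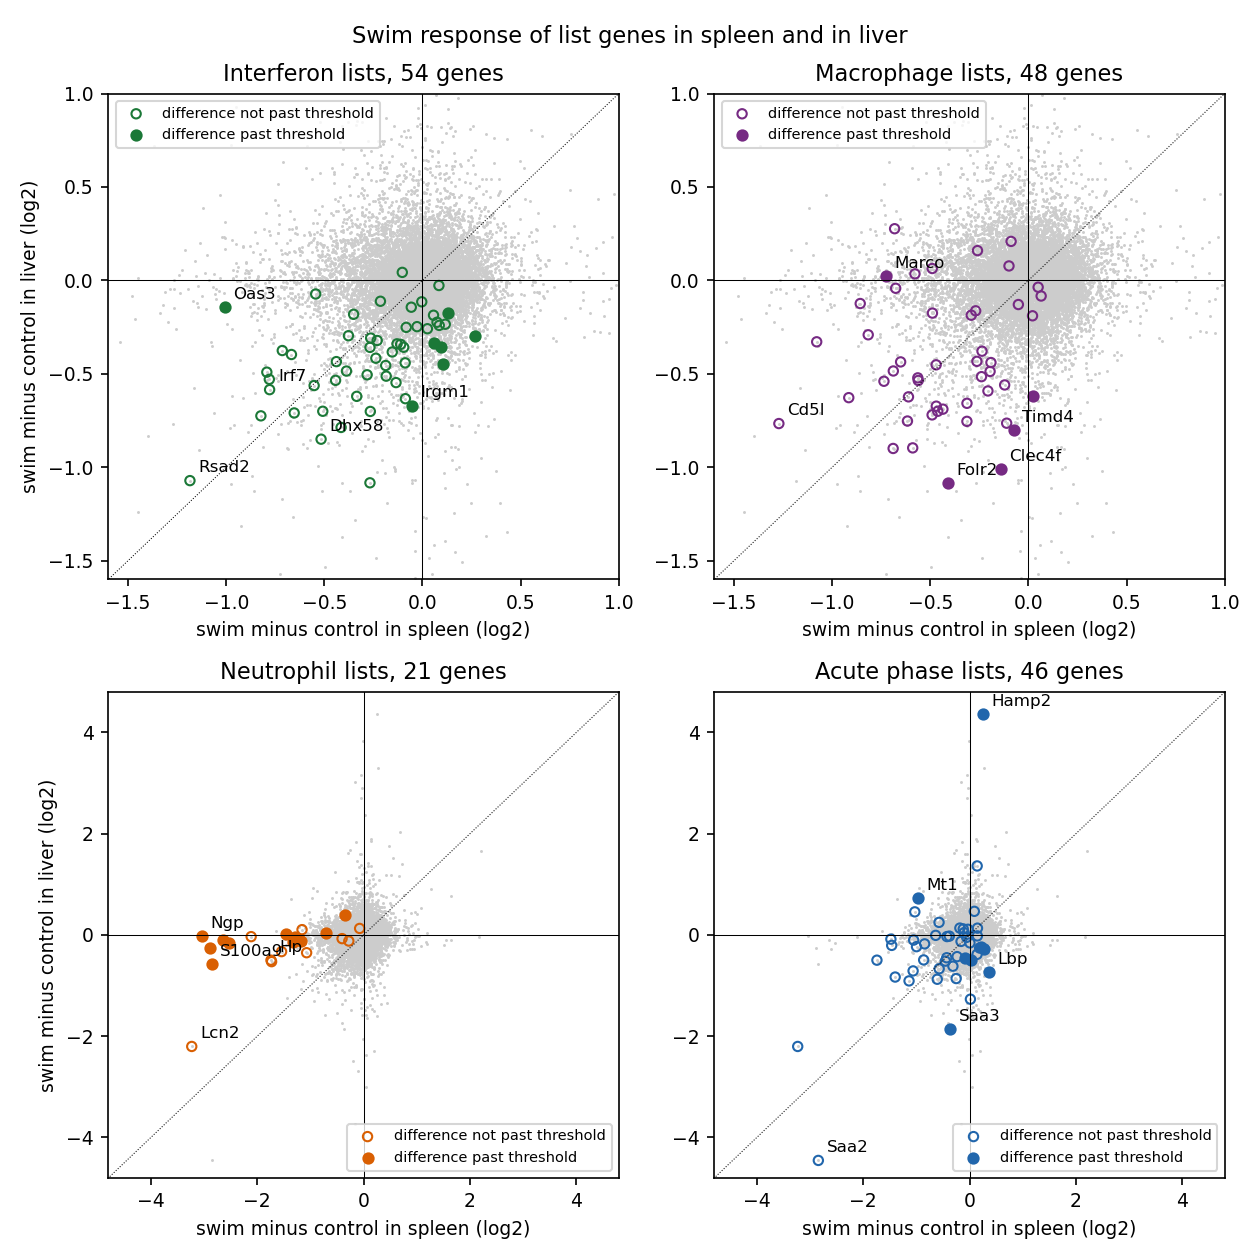
Change with swimming in spleen (x) and in liver (y), both log2, for the genes of the interferon, macrophage, neutrophil and acute phase lists (coloured) over all 12644 genes tested (grey dots, partly outside the axes in the upper panels, which span a smaller range); filled circles passed the test of the difference between organs, and the dotted line marks equal changes. Interferon and macrophage genes lie mostly below 0 on both axes, neutrophil genes lie along the spleen axis with Lcn2 low on both, and Saa3 and Hamp2 differ along the liver axis.

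Interferon-induced genes fell in both organs, and antiviral effectors made up 13 of the 19 falls in spleen and 7 of the 11 in liver. Of 63 listed names 54 were tested, and 19 fell in spleen (against 5.96% of all genes), 11 fell in liver (against 1.76%) and 7 fell in both (against 0.372%), with 0 rises in either organ by limma (1 in spleen and 0 in liver at an unadjusted p under 0.05). The 7 were Irf7, Dhx58, Ifi27l2a, Rsad2, Oasl2, Lgals3bp and Bst2. The median change of the 54 genes was -0.22 in spleen and -0.38 in liver, against -0.01 over all genes in each organ. Swim arrays lay below all control arrays for 23 of the 54 genes in spleen, 36 in liver and 17 in both. Because whole organs were measured, fewer cells of a type and less RNA per cell cannot be told apart for any gene. Differences between the organs passed for 7 of the 54 genes, with 6 above 0 and 1 below (against 4.2% and 5.35% of all genes).

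Promoters of 4 of these genes are shown because they stand for the 3 patterns of calls in the lists. The first is falls in both organs whose difference did not pass (Rsad2, Bst2). The others are a fall in spleen with a difference below 0 (Oas3, under the dim limit in liver) and a fall in liver with a difference above 0 (Irgm1). Each window holds 250 bases before and 50 bases after the start, from RefSeq on GRCm38.p6, 5′ to 3′ on the gene's strand. Capitals mark matches, on either strand, to a core of the interferon-stimulated response element, which is GAAA, any 2 bases and GAAA again, and matches that overlap run together. The windows lie at chr12:26456403-26456702, minus strand, chr8:71537423-71537722, minus strand, chr5:120777610-120777909, minus strand, and chr11:48871371-48871670, minus strand.
Rsad2: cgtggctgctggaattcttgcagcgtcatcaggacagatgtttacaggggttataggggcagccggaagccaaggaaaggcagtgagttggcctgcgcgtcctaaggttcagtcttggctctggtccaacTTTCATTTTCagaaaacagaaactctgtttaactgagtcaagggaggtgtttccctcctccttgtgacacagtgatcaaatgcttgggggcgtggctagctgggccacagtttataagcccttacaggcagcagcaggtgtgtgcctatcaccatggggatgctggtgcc
Bst2: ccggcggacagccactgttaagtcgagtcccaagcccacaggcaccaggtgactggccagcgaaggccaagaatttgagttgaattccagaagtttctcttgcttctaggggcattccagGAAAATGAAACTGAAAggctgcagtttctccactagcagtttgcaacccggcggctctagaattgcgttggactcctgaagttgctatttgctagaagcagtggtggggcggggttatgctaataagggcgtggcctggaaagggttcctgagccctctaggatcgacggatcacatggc
Oas3: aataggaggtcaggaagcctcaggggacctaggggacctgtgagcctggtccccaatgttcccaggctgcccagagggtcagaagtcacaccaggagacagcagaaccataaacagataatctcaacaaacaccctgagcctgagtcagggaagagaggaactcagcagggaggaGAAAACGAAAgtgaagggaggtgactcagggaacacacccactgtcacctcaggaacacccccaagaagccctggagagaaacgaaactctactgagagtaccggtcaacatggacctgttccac
Irgm1: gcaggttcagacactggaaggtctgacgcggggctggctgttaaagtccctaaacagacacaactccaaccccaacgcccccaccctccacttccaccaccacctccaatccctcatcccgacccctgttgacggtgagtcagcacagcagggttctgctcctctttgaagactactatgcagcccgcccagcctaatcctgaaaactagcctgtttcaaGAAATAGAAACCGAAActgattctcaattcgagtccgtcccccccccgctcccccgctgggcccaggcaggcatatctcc
The motif is held by 3.44% of all 32851 promoter windows. Windows were found for 40 of the 54 list genes, fewer than 80%, so a comparison of shares over the list is void. Of the 7 shared falls 5 had a window, and the 2 shown held the motif, while Irf7, Oasl2 and Lgals3bp held none. Of the 6 genes with a difference above 0, 4 had a window, and Irgm1 alone held the motif. A match is a description of the letters and not a binding site.

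Among the regulators, Irf7 (probe set 10569102), the factor that amplifies interferon production, read 8.81, 8.81, 8.89 and 8.73 in control spleen and 7.88, 8.13, 8.14 and 7.98 in swim spleen. Liver levels were 8.77, 8.43 and 8.25 in controls and 7.82, 8.05, 7.84 and 7.87 with swimming. All swim arrays lay below all control arrays in both organs. Irf7 fell by 0.78 ± 0.07 in spleen (limma adjusted p = 0.00502) and fell by 0.58 ± 0.12 in liver (limma adjusted p = 0.0457). The difference of -0.19 ± 0.14 (95% interval -0.50 to 0.11) did not pass. Dhx58, a regulator of RNA sensing, fell in spleen and liver too, at -0.52 and -0.85. The RNA-activated kinase Eif2ak2 fell in spleen, at -0.44 ± 0.09, and its liver change of -0.43 ± 0.11 missed the threshold (limma adjusted p = 0.0680). Its difference was -0.0039 ± 0.14 (95% interval -0.30 to 0.30).

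Among the effectors, Rsad2 (probe set 10399710), which encodes viperin, read 10.61, 10.74, 10.70 and 10.44 in control and 9.66, 10.24, 9.04 and 8.82 in swim spleen. The liver arrays gave 8.88, 8.09 and 8.18 in controls and 7.19, 7.49, 7.40 and 7.16 with swimming. The groups did not overlap in either organ, and swim spleen spread over more than 1 log2 unit. Rsad2 fell by 1.18 ± 0.28 in spleen and fell by 1.07 ± 0.19 in liver (limma adjusted p = 0.0322 and 0.0256), and its difference was -0.11 ± 0.33 (95% interval -0.82 to 0.60). Ifi27l2a, a small interferon-induced membrane protein gene, fell by 0.82 ± 0.05 in spleen and fell by 0.73 ± 0.14 in liver. Its difference was -0.10 ± 0.15 (95% interval -0.44 to 0.24). Changes of Oasl2, related to the 2′-5′-oligoadenylate synthetases, were -0.79 and -0.49, and those of Lgals3bp, a secreted glycoprotein, were -0.78 and -0.53. Bst2, which encodes tetherin, changed by -0.27 and -0.36. None of these 7 shared falls passed the test of the difference. A further 12 genes fell in spleen and not past the threshold in liver, among them Isg15, a ubiquitin-like protein gene (-0.67 ± 0.16 and -0.40 ± 0.16), and Usp18, which removes ISG15 (-0.39 ± 0.10 and -0.49 ± 0.18). Their differences were -0.27 ± 0.23 (95% interval -0.75 to 0.21) and 0.10 ± 0.21 (95% interval -0.35 to 0.55).

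Oas3 alone of the 54 genes had a difference below 0 that passed. This oligoadenylate synthetase gene read 8.23, 8.46, 8.50 and 7.91 in control and 7.12, 7.69, 7.13 and 7.14 in swim spleen, and 5.44, 5.61 and 5.54 in control and 5.48, 5.42, 5.20 and 5.44 in swim liver. Swim spleen lay below control spleen, while the liver groups overlapped at levels under the dim limit. Oas3 fell by 1.01 ± 0.17 in spleen and changed by -0.14 ± 0.09 in liver, with a difference of -0.86 ± 0.19 (adjusted p = 0.0149). It had little room to fall in liver, so its difference does not show that the organs responded otherwise.

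Genes induced mainly by interferon-gamma were those of GTPases and antigen processing. Of 17 tested, 0 fell in spleen (against 5.96% of all genes) and 1 fell in liver (against 1.76%) by limma. At an unadjusted p under 0.05, 2 fell in spleen and 9 in liver, against 2036 and 1361 of all 12644 genes. Medians were -0.05 and -0.25, and 4 had a difference above 0 (against 4.2%). Irgm1, a GTPase of cell-autonomous defence, read 9.32, 9.33, 9.58 and 9.53 in control and 9.29, 9.36, 9.44 and 9.45 in swim spleen, where the groups overlapped. In liver it read 10.29, 9.83 and 9.74 in controls and 9.22, 9.28, 9.24 and 9.40 with swimming, without overlap. It fell by 0.67 ± 0.13 in liver (limma adjusted p = 0.0337) against -0.05 ± 0.08 in spleen, a difference of 0.62 ± 0.15 (adjusted p = 0.0214). Differences of Gbp4, another GTPase, and Psmb9, an immunoproteasome subunit, were 0.56 ± 0.15 and 0.45 ± 0.11, with liver changes of -0.30 and -0.35 that did not pass, and the remaining member was Psme2, a proteasome activator subunit. Of the other interferon lists, 2 genes fell in liver with a difference above 0, namely Parp14 (difference 0.39 ± 0.09), an ADP-ribosyltransferase, and Herc6 (difference 0.55 ± 0.12), an ISG15 ligase.

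The interferon counts rested on few arrays. Without arrays 26 and 52 together, 7 of the 54 genes fell in spleen, 14 in liver and 3 in both. Leaving out any 1 of liver control arrays 49 and 50 or swim arrays 53 to 56 left 1 or 2 falls in liver, and leaving out spleen control arrays 25, 26, 27 or 28, or swim arrays 29 or 32, left 6 to 10 falls in spleen. With the values as deposited, which put the median of all spleen changes at -0.26, and with arrays centred on medians, 0 interferon differences above 0 passed.

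**Figure D3:**
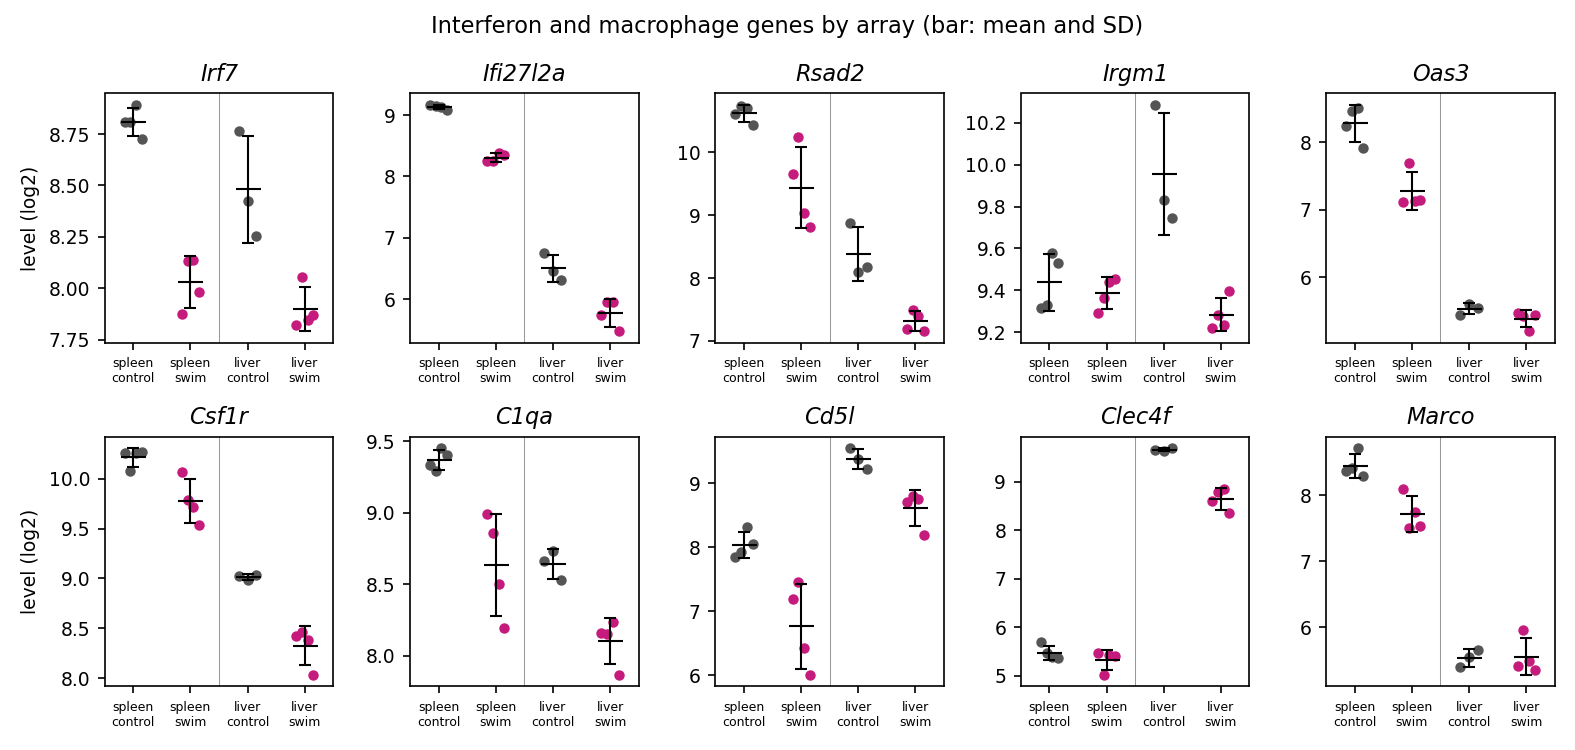
Levels (log2 of intensity + 16) on each array for 5 interferon-induced genes (Irf7, Ifi27l2a, Rsad2, Irgm1, Oas3) and 5 macrophage genes (Csf1r, C1qa, Cd5l, Clec4f, Marco) in control (grey) and swim (magenta) spleen and liver; bars give the mean and SD of 3 or 4 arrays, and each panel has its own axis. Swim arrays lie below control arrays in both organs for Irf7, Ifi27l2a, Rsad2, Csf1r, C1qa and Cd5l, in liver alone for Irgm1 and Clec4f, and in spleen alone for Oas3 and Marco.

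Macrophage genes fell in both organs. Of 51 listed names 48 were tested, and 20 fell in spleen (against 5.96% of all genes), 20 fell in liver (against 1.76%) and 12 fell in both (against 0.372%), with 0 rises in either organ by limma (0 at an unadjusted p under 0.05). The median change was -0.45 in spleen and -0.49 in liver, and swim arrays lay below all control arrays for 24 genes in spleen, 28 in liver and 15 in both. Differences passed for 5 genes, with 4 above 0 and 1 below (against 4.2% and 5.35% of all genes). Of the 28 genes common to macrophages of several tissues, 12 fell in spleen, 13 in liver and 8 in both, and 1 difference passed.

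Csf1r (probe set 10456071), the receptor for the growth factor on which macrophages depend, read 10.25, 10.08, 10.25 and 10.27 in control and 10.06, 9.79, 9.72 and 9.54 in swim spleen. In liver it read 9.02, 8.98 and 9.04 in controls and 8.42, 8.46, 8.38 and 8.04 with swimming. Swim arrays lay below control arrays in both organs, by a small gap in spleen. Csf1r fell by 0.44 ± 0.11 in spleen and fell by 0.69 ± 0.11 in liver (limma adjusted p = 0.0349 and 0.0184), with a difference of 0.25 ± 0.15 (95% interval -0.06 to 0.57). C1qa, a chain of the complement starter C1q, read 9.34, 9.30, 9.45 and 9.41 in control and 8.99, 8.86, 8.50 and 8.20 in swim spleen. Liver levels were 8.66, 8.73 and 8.53 in controls and 8.16, 8.15, 8.23 and 7.87 with swimming. The groups did not overlap, and swim spleen arrays 31 and 32, which were also low in erythroid genes, were lowest. C1qa fell by 0.74 ± 0.16 in spleen and fell by 0.54 ± 0.10 in liver, and the second chain C1qb changed by -0.69 and -0.90. Adgre1, which encodes the surface protein F4/80, changed by -0.61 ± 0.12 and -0.62 ± 0.13, a difference of 0.01 ± 0.18 (95% interval -0.36 to 0.39). The other shared falls were Cd68 (-0.46 and -0.70), a lysosomal protein, Mpeg1 (-0.31 and -0.75), a pore-forming protein, Fcer1g (-0.56 and -0.52), an Fc receptor chain, and the receptor Axl (-0.56 and -0.54), which binds apoptotic cells.

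Differences passed for some markers of resident macrophages, but Clec4f and Folr2 were under the dim limit in spleen and Marco in liver. Genes under the limit had little room to fall there, so these differences do not show that the organs responded otherwise. That of Timd4 did not pass with the values as deposited or with arrays centred on medians, as given below. Of 9 Kupffer cell genes 5 fell in liver and 4 in spleen, 2 of them in both, and 3 differences were above 0. Those that fell in spleen were Cd5l, Folr2, the complement gene C6 and Clec1b, the last also a receptor gene of platelets. Clec4f, a lectin that marks Kupffer cells, read 9.65, 9.64 and 9.69 in control and 8.60, 8.79, 8.84 and 8.35 in swim liver, with no overlap. In spleen it lay under the dim limit, at 5.69, 5.46, 5.38 and 5.36 in controls and 5.46, 5.02, 5.44 and 5.40 with swimming. It fell by 1.01 ± 0.12 in liver (limma adjusted p = 0.00804), and the difference was 0.87 ± 0.16 (adjusted p = 0.00453). Folr2, a folate receptor, was also under the dim limit in spleen, where it fell by 0.41 ± 0.09. It fell by 1.09 ± 0.13 in liver, with a difference of 0.68 ± 0.15 (adjusted p = 0.0148). Vsig4, a complement receptor, fell by 0.90 ± 0.19 in liver, and its difference was 0.31 ± 0.33 (adjusted p = 0.589). Timd4, a receptor for phosphatidylserine, was expressed in both organs, at 9.39, 9.10, 9.27 and 9.48 in control and 9.43, 9.11, 9.26 and 9.14 in swim spleen. The liver arrays gave 7.88, 7.73 and 7.70 in controls and 7.18, 7.19, 7.01 and 6.50 with swimming. The spleen groups overlapped and the liver groups did not. Timd4 fell by 0.80 ± 0.16 in liver against -0.07 ± 0.10 in spleen, a difference of 0.73 ± 0.19 (adjusted p = 0.0308).

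Cd5l, which encodes a secreted protein of tissue macrophages, fell by 1.27 ± 0.29 in spleen and fell by 0.77 ± 0.15 in liver, and read 7.18, 7.45, 6.42 and 6.01 in swim spleen, where arrays 31 and 32 were lowest. Of 11 genes of red pulp and marginal zone macrophages 4 fell in spleen and 2 in liver, both of them shared. These were Siglec1, the sialic acid receptor of marginal zone macrophages (-0.49 and -0.72), and Treml4 (-0.92 and -0.63), a receptor of splenic myeloid cells. Marco, a scavenger receptor of marginal zone macrophages, read 8.37, 8.41, 8.71 and 8.29 in control and 8.09, 7.50, 7.75 and 7.53 in swim spleen, without overlap. In liver it was under the dim limit, at 5.40, 5.55 and 5.67 in controls and 5.42, 5.97, 5.49 and 5.36 with swimming. Marco fell by 0.73 ± 0.14 in spleen (limma adjusted p = 0.0205), with a difference of -0.75 ± 0.20 (adjusted p = 0.0305). The protease gene Ctss had the remaining difference, 0.64 ± 0.16, with changes of 0.03 in spleen and -0.62 in liver, the latter short of the threshold (limma adjusted p = 0.0603).

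Macrophage counts also moved with single arrays. Without arrays 26 and 52 together, 12 of 48 genes fell in spleen, 16 in liver and 5 in both. Falls in spleen numbered 2, 12, 2 and 4 without control arrays 25, 26, 27 and 28, and 2 and 11 without swim arrays 31 and 32. Falls in liver numbered 2 and 3 without control arrays 49 and 50, and 5, 4 and 10 without swim arrays 53, 54 and 55. The levels of hepatocyte genes in spleen, used as a covariate after seeing the data, left 12 spleen falls and 7 shared falls. Differences moved with the scaling: with the values as deposited 2 were above 0 and 8 below, and with arrays centred on medians 2 and 3. Those of Timd4 (0.44 and 0.61, adjusted p = 0.220 and 0.0993) and Ctss (0.36 and 0.53, adjusted p = 0.268 and 0.115) passed in neither of these settings, nor did they pass without any 1 of liver arrays 49, 50, 52 and 55. That of Folr2 passed in both and was lost with a pseudocount of 1 (0.45, adjusted p = 0.205). That of Marco was lost with a pseudocount of 1 (adjusted p = 0.0810), with array weights, and without any 1 of spleen arrays 27, 31 and 32 or liver arrays 49 and 50. The part of other cell types in the macrophage falls was not tested.

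Granule genes of neutrophils fell in spleen. Of 39 listed names of neutrophils and their precursors 21 were tested, of which 15 fell in spleen (against 5.96% of all genes) and 2 in liver (against 1.76%), with 0 rises by limma (0 in spleen and 1 in liver at an unadjusted p under 0.05). The median change was -1.45 in spleen and -0.11 in liver, and 11 differences were below 0 (against 5.35%). The granule and calprotectin genes tested were the 13 of the list above the dim limit in at least 1 organ, and the 13 that fell in spleen and the 9 with a difference below 0 were counted among these. Of the 13, Lcn2 and Hp were above the limit in liver. The other 11 were tested through their spleen levels alone and had little room to fall in liver, so their differences do not show that neutrophil genes of liver responded otherwise. Among genes above the limit in both organs Lcn2 and Hp were the granule genes left, and neither had a difference that passed. The mean level of the 13 genes lay between 7.84 and 8.47 in control and between 5.77 and 6.51 in swim spleen. In liver it lay between 5.98 and 6.22 in controls and between 5.71 and 5.83 with swimming, so the means did not overlap in either organ. The liver mean includes the falls of Lcn2 and Hp, which hepatocytes also express, and their part in it was not tested. For single genes, swim arrays lay below all control arrays in liver for 3 of the 13.

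Ngp, a cathelicidin-related granule protein gene (probe set 10589535), read 10.26, 9.84, 10.37 and 10.58 in control and 8.12, 7.84, 5.85 and 7.05 in swim spleen. In liver it read between 4.51 and 4.67 on all 7 arrays. Swim spleen lay below control spleen, lowest in array 31, and the liver groups overlapped at the floor of the array. Ngp fell by 3.05 ± 0.44 in spleen (limma adjusted p = 0.0114), and the difference was -3.03 ± 0.45 (95% interval -4.04 to -2.01). S100a9, a subunit of calprotectin, read 9.46, 9.55, 11.02 and 9.23 in control and 7.34, 7.47, 6.29 and 6.75 in swim spleen. In liver, where it was under the dim limit, it read 5.69, 6.11 and 5.31 in controls and 5.11, 5.25, 5.12 and 5.01 with swimming. Swim arrays were lower in both organs, with control spleen array 27 highest. S100a9 fell by 2.86 ± 0.41 in spleen and changed by -0.58 ± 0.17 in liver (limma adjusted p = 0.0114 and 0.103), a difference of -2.27 ± 0.44 (adjusted p = 0.0105). Its partner S100a8 had a difference of -2.55 ± 0.38. Among the genes of specific granules, Ltf (lactoferrin) and Camp (cathelicidin) had differences of -2.36 ± 0.25 and -1.24 ± 0.17. Those of the primary granule genes Elane (neutrophil elastase) and Mpo (myeloperoxidase) were -1.46 ± 0.23 and -1.06 ± 0.20. Chil3 and Cd177 followed at -1.19 ± 0.27 and -0.75 ± 0.15, and Retnlg, a resistin-like cytokine gene of the surface and precursor list, at -2.63 ± 0.56. Mmp9, a granule protease, fell in spleen by 1.73 ± 0.33, and its difference of -1.20 ± 0.36 missed the threshold (adjusted p = 0.0566).

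Lcn2 and Hp, which neutrophils and hepatocytes both express, were the 2 members that fell in both organs. Lcn2, which encodes the iron-binding lipocalin-2, read 9.11, 8.76, 9.90 and 9.11 in control and 6.72, 6.64, 4.97 and 5.61 in swim spleen. In liver it read 10.00, 9.83 and 9.01 in controls and 7.17, 7.52, 7.22 and 7.73 with swimming. Swim and control arrays were more than 1 log2 unit apart in both organs. Lcn2 fell by 3.23 ± 0.41 in spleen and fell by 2.20 ± 0.24 in liver (limma adjusted p = 0.00902 and 0.00747), and the difference of -1.03 ± 0.47 (95% interval -2.04 to -0.02, adjusted p = 0.182) did not pass over all genes. Hp, which encodes haptoglobin, read 6.72, 8.78, 8.20 and 6.81 in control and 5.90, 5.96, 5.65 and 6.03 in swim spleen, highest in arrays 26 and 27, the 2 in which Saa2 was high. In liver it fell by 0.50 ± 0.10, from 12.73, 12.97 and 12.61 to 12.15, 12.31, 12.29 and 12.34. The difference of -1.24 ± 0.44 (95% interval -2.24 to -0.25, adjusted p = 0.111) did not pass over all genes. Its spleen change was -1.74 ± 0.43 with all arrays (limma adjusted p = 0.0374) and -1.35 without array 26 (limma adjusted p = 0.0543). Without arrays 26 and 52 together, 11 of 12 granule genes tested fell in spleen and 4 in liver, with 8 differences below 0.

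**Figure D4:**
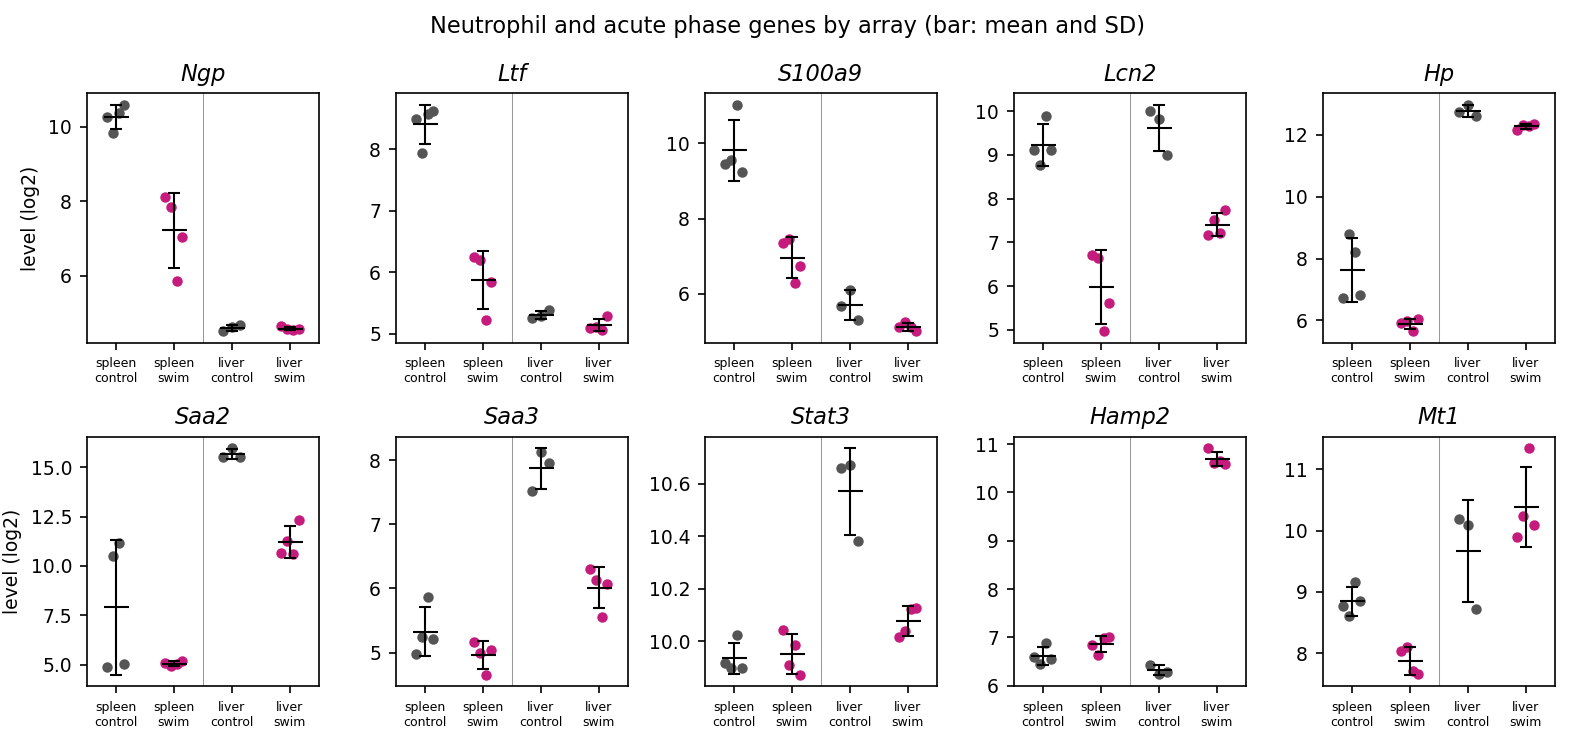
Levels (log2 of intensity + 16) on each array for 4 neutrophil genes (Ngp, Ltf, S100a9, Lcn2) and 6 acute phase genes (Hp, Saa2, Saa3, Stat3, Hamp2, Mt1) in control (grey) and swim (magenta) spleen and liver; bars give the mean and SD of 3 or 4 arrays, and each panel has its own axis. Ngp and Ltf fall in spleen and stay near the floor in liver, Lcn2 falls in both organs, Saa3 and Stat3 fall in liver, and Hamp2 stands at 10.58 or more in swim liver against 6.43 or less in control liver.

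Acute phase genes fell in liver, among them Saa3, which was under the dim limit in spleen. Of 29 acute phase protein genes tested 9 fell and 1 rose in liver (against 1.76% and 1.38% of all genes), and 5 fell and 1 rose in spleen (against 5.96% and 5.62%), with 17 of the 29 above the dim limit in spleen. Median changes were -0.27 in liver and -0.64 in spleen. The mean level of this list in spleen was highest on control arrays 26 and 27 (7.70 and 7.27), where hepatocyte genes averaged 10.08 and 7.67. On swim arrays 29 and 31 hepatocyte genes averaged 7.09 and 7.42, and the list averaged 6.09 and 6.04. The spleen median of the list was -0.21 without array 26 (and liver array 52) and -0.28 with the hepatocyte level as a covariate. The cause of the high levels on arrays 26 and 27 was not tested. Differences passed for 5 genes, with 3 above 0 (Saa3, Serpina3n, Lbp) and 2 below 0 (Hamp2, Mt1), against 4.2% and 5.35% of all genes. Over both acute phase lists 11 genes fell in liver, 14 without liver array 52 and 4 to 6 without any 1 of the other 6 liver arrays.

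Saa2 (probe set 10553274), a major serum amyloid gene, read 15.52, 15.96 and 15.52 in control and 10.66, 11.25, 10.58 and 12.35 in swim liver. The groups stood more than 3 log2 units apart. Saa2 fell by 4.46 ± 0.39 in liver (limma adjusted p = 0.00276), while its spleen change of -2.84 ± 1.42 did not pass and rested on arrays 26 and 27. The difference, 1.61 ± 1.47 (95% interval -1.67 to 4.90), was too imprecise to order the organs. Saa3, the serum amyloid gene expressed also outside hepatocytes, read 7.52, 8.13 and 7.96 in control and 6.30, 6.13, 5.55 and 6.07 in swim liver, and between 4.66 and 5.87 in spleen, under the dim limit. It fell by 1.86 ± 0.20 in liver (limma adjusted p = 0.00646), and the difference was 1.50 ± 0.27 (adjusted p = 0.00366). Saa3 had little room to fall in spleen, so its difference does not show that the organs responded otherwise. The fibrinogen chain gene Fga fell by 0.91 ± 0.16 in liver, the fibrinogen-like hepatokine gene Fgl1 by 0.88 ± 0.11 and Itih3, a hyaluronan-binding inhibitor gene, by 0.45 ± 0.07. Their differences were -0.23 ± 0.86 (95% interval -2.16 to 1.70), 0.27 ± 0.48 (95% interval -0.80 to 1.34) and 0.02 ± 0.23 (95% interval -0.49 to 0.53), none of which passed.

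Of 17 genes that carry the acute phase signal, 2 fell in liver (against 1.76% of all genes) and 0 in spleen (against 5.96%) by limma, with 0 rises. At an unadjusted p under 0.05, 4 fell and 2 rose in liver, and 3 fell and 3 rose in spleen. Over all 12644 genes, 1361 fell and 1151 rose in liver, and 2036 fell and 1955 rose in spleen. Differences passed for 3 genes, all above 0 (against 4.2%). At an unadjusted p under 0.05, 3 differences were above 0 and 5 below, against 1627 and 1722 of all genes. Stat3, which transmits the interleukin-6 signal, read 9.92, 9.90, 10.02 and 9.90 in control and 10.04, 9.91, 9.98 and 9.87 in swim spleen. Liver levels were 10.66, 10.67 and 10.38 in controls and 10.02, 10.04, 10.12 and 10.13 with swimming. The spleen groups overlapped and the liver groups did not. Stat3 fell by 0.49 ± 0.09 in liver (limma adjusted p = 0.0262) against a change above 0 in spleen (0.02 ± 0.06). Its difference was 0.51 ± 0.10 (95% interval 0.29 to 0.73, adjusted p = 0.00877). Lifr, a receptor chain for cytokines of the interleukin-6 family, fell by 0.45 ± 0.08 in liver, with a difference of 0.37 ± 0.10 (adjusted p = 0.0291). These differences depended on the scaling. With the values as deposited those of Stat3 and Lifr were 0.21 and 0.04 (adjusted p = 0.537 and 0.906), and with arrays centred on medians 0.37 and 0.21 (adjusted p = 0.233 and 0.554). Over both acute phase lists 6 differences were above 0 in the main scaling, 3 as deposited and 1 after centring. The Lifr difference also missed the threshold without any 1 of spleen arrays 28 and 31 or liver arrays 49, 50, 53, 55 and 56 (adjusted p up to 0.0728).

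A few acute phase genes moved against the list. Hamp2, a hepcidin gene, read 6.43, 6.25 and 6.29 in control and 10.91, 10.61, 10.65 and 10.58 in swim liver, and between 6.44 and 7.0030 on the spleen arrays, where the groups overlapped. It rose by 4.37 ± 0.10 in liver (limma adjusted p = 4.10e-07), and the difference of -4.12 ± 0.15 was the lowest of all genes that passed. Hamp, the neighbouring hepcidin gene of near-identical sequence, changed by 1.36 ± 0.52 in liver and did not pass, and signal shared between their probes was not tested. Mt1, a metallothionein gene, read 8.77, 8.60, 9.15 and 8.86 in control and 8.03, 8.10, 7.70 and 7.66 in swim spleen, without overlap, and 10.20, 10.09 and 8.72 in control and 9.89, 10.24, 11.34 and 10.09 in swim liver, where the groups overlapped. Mt1 fell by 0.97 ± 0.14 in spleen and changed by 0.72 ± 0.43 in liver, a difference of -1.70 ± 0.46 (adjusted p = 0.0446). Its difference passed in 4 of 15 fits without 1 array (spleen arrays 25, 26, 29 and 30), and without liver control array 52 it was -1.22 (adjusted p = 0.0788). Mt2 fell in spleen by 1.03 ± 0.19, and its difference of -1.49 ± 0.56 (95% interval -2.72 to -0.25) did not pass. Serpina3n, a protease inhibitor gene, rose by 0.27 ± 0.05 in spleen (from 9.09, 9.22, 9.23 and 9.18 to 9.38, 9.42, 9.49 and 9.49) against -0.27 ± 0.08 in liver, a difference of 0.54 ± 0.10. With the values as deposited, its spleen change was -0.056 and did not pass. Lrg1 fell by 1.40 ± 0.29 in spleen, where it was highest in control arrays 26 and 27, and changed by -0.83 ± 0.19 in liver (limma adjusted p = 0.0599). For Lbp, which encodes the lipopolysaccharide-binding protein, the difference of 1.11 ± 0.31 came from changes that passed in neither organ (0.36 and -0.74). It passed in 9 of 13 alternatives and 6 of 15 fits without 1 array, and was lost without any 1 of spleen arrays 25, 28, 31 and 32 or liver arrays 49, 50, 53, 54 and 55.

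The 47 shared falls held 7 interferon, 12 macrophage and 2 neutrophil or acute phase list genes. Differences passed for 4 of the 47, namely Folr2, Npas2, Ints7 and Tubb2a, the last pair named after their values were seen. Of the 10 whose larger unadjusted p was smallest, Lcn2 and Treml4 are described above. Pcolce2, an enhancer of procollagen processing, fell by 0.98 ± 0.14 in spleen and fell by 0.79 ± 0.12 in liver. Pilrb1, a paired immunoglobulin-like receptor gene, changed by -0.53 and -0.63, and Slc15a3, a lysosomal peptide transporter gene, by -0.45 and -0.77. The others were AW112010 (-0.32 and -0.51), the ubiquitin ligase gene Dtx4 (-0.44 and -0.69), the aldehyde dehydrogenase gene Aldh3b1 (-0.61 and -0.55) and the volume-regulated channel gene Lrrc8d (-0.40 and -0.40). Npas2, a partner of the clock activator BMAL1, read 5.85, 5.58, 6.01 and 5.72 in control and 4.95, 5.21, 5.04 and 5.04 in swim spleen. The liver arrays gave 7.26, 6.48 and 6.38 in controls and 5.14, 5.26, 5.16 and 4.96 with swimming. It fell by 0.73 ± 0.10 in spleen and fell by 1.57 ± 0.20 in liver, and its difference of 0.85 ± 0.22 passed (adjusted p = 0.0329).

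Clock genes were among the 17 shared rises, and Per2 and Per3 rose more in liver. The clock runs on activators (CLOCK, NPAS2 and BMAL1, the product of Arntl) that bind E-boxes in their repressors' promoters. Of 17 clock and clock output genes 5 rose and 1 fell in spleen (against 5.62% and 5.96% of all genes), 8 rose and 4 fell in liver (against 1.38% and 1.76%), and 5 rose in both (against 0.134%). Differences passed for 9, with 3 above 0 and 6 below. Per3, a period repressor gene, read 6.57, 6.46, 6.21 and 6.66 in control and 7.19, 7.07, 7.17 and 7.20 in swim spleen. In liver it read 5.75, 6.73 and 6.83 in controls and 8.59, 8.44, 8.53 and 8.28 with swimming. Swim arrays lay above control arrays in both organs, and liver control array 49 stood apart below. Per3 rose by 0.69 ± 0.09 in spleen and by 2.03 ± 0.24 in liver, a difference of -1.34 ± 0.26 (adjusted p = 0.0106). Per2 rose by 0.56 ± 0.07 and 1.51 ± 0.20, a difference of -0.95 ± 0.21. The output factor gene Tef rose by 0.67 ± 0.12 and 1.16 ± 0.18, and the repressor gene Nr1d2 by 0.52 ± 0.07 and 0.60 ± 0.11, with differences of -0.50 ± 0.21 (95% interval -0.95 to -0.04) and -0.08 ± 0.12 (95% interval -0.35 to 0.18) that did not pass. Hlf, another output factor gene, rose by 0.75 ± 0.11 and 0.49 ± 0.10. Arntl fell by 2.37 ± 0.15 in liver against a change above 0 in spleen (0.05 ± 0.07), a difference of 2.42 ± 0.16 (adjusted p = 1.71e-05). Clock fell by 0.60 ± 0.08 in liver, also against a change above 0 in spleen (0.09 ± 0.05), a difference of 0.69 ± 0.09. Ciart, a clock repressor gene, rose by 3.29 ± 0.18 in liver against 0.28 ± 0.10 in spleen. Its difference was -3.01 ± 0.20.

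Outside the clock, the leptin receptor gene Lepr rose by 0.49 ± 0.07 in spleen and by 1.76 ± 0.25 in liver, a difference of -1.27 ± 0.26 (adjusted p = 0.0191). Fkbp5, a glucocorticoid-induced cochaperone gene, rose by 0.73 ± 0.14 and 1.41 ± 0.17, with a difference of -0.68 ± 0.22 (95% interval -1.14 to -0.21) that did not pass. Promoters are shown for 2 genes that rose in both organs (Tef, Ankrd12) and for Ciart, because clock activators are known to act at the E-box. Capitals mark CACGTG, which reads the same on both strands. The windows lie at chr15:81802423-81802722, plus strand, chr17:66076997-66077296, minus strand, and chr3:95882179-95882478, minus strand (RefSeq, GRCm38.p6).
Tef: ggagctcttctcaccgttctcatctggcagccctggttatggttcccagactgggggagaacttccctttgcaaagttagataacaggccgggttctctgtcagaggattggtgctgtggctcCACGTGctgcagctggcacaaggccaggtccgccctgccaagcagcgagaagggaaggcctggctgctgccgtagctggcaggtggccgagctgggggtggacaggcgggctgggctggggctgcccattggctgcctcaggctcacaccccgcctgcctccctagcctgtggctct
Ankrd12: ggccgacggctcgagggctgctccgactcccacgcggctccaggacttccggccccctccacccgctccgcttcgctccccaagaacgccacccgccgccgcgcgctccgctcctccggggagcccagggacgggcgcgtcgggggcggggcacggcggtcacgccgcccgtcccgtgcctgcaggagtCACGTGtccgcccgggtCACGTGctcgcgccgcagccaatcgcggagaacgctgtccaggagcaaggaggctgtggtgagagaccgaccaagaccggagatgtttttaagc
Ciart: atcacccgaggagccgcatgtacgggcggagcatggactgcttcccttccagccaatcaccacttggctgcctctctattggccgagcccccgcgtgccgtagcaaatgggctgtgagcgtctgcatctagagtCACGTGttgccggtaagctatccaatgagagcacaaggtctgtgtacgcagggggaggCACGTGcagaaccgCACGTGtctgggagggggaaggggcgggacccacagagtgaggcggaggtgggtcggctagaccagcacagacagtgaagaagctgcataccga
Of 17 genes that rose in both organs 14 had a window, and 7 of these (50%) held CACGTG, against 11.2% of 10078 tested genes with a window and 7.15% of all windows. The 7 were Tef, Ankrd12, Cpeb1, Elovl5, Fkbp5, Ivns1abp and Ttc3, while the windows of Per3, Nr1d2, Hlf and Lepr held none. Of 15 clock list genes with a window 5 (33.3%) held it. The match is a description, with no test, and windows with no match say only that these letters are absent from them.

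All 17 genes that changed in opposite directions passed the test of the difference, 9 of them higher with swimming in spleen and 8 lower. Acadl, the long-chain acyl-CoA dehydrogenase of fatty acid oxidation, read 9.22, 9.21, 9.17 and 9.18 in control and 8.91, 9.01, 8.84 and 8.67 in swim spleen. Liver levels were 10.00, 10.06 and 10.08 in controls and 10.60, 10.61, 10.65 and 10.61 with swimming. The groups did not overlap in either organ and moved apart in opposite senses. Acadl fell by 0.34 ± 0.07 in spleen and rose by 0.57 ± 0.06 in liver, a difference of -0.91 ± 0.09 (adjusted p = 7.08e-05). The mitochondrial thioesterase gene Acot2 fell by 0.88 ± 0.08 in spleen and rose by 0.87 ± 0.16 in liver, a difference of -1.75 ± 0.18. Of 16 PPAR-alpha targets and oxidation genes for fatty acids, 5 fell in spleen (against 5.96% of all genes), 3 rose in liver (against 1.38%) and 8 had a difference below 0 (against 5.35%). The largest of these was that of Cyp4a14, a fatty acid hydroxylase gene, at -3.85 ± 0.22, with a rise of 3.83 ± 0.21 in liver and levels under the dim limit in spleen. With the hepatocyte level as a covariate 10 genes changed in opposite directions, and 5 did so without arrays 26 and 52. Zyx, which encodes the adhesion protein zyxin, fell by 0.37 ± 0.07 in spleen and rose by 0.46 ± 0.07 in liver. Pklr, the pyruvate kinase of liver and erythrocytes, had a spleen change of -1.37 ± 0.32 and a liver change of 0.72 ± 0.15, both past the threshold, with a difference of -2.09 ± 0.36. Its fall in spleen stood beside low erythroid genes on swim arrays 31 and 32. In the other sense Chka, a choline kinase gene, rose by 0.38 ± 0.06 in spleen and fell by 1.02 ± 0.20 in liver, a difference of 1.40 ± 0.21. Pklr and Chka were chosen after their values were seen.

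The widest differences outside these groups came from changes in liver. Rgs16, a regulator of G protein signalling, rose by 3.15 ± 0.38 in liver, and Mfsd2a, a transporter of lysophosphatidylcholine, by 3.02 ± 0.28. Their differences were -3.21 ± 0.40 and -3.18 ± 0.29, against spleen changes of -0.06 ± 0.11 and -0.16 ± 0.08. Ugt2b37, a glucuronosyltransferase gene, fell by 3.00 ± 0.42 in liver, from 12.04, 11.22 and 9.90 to 8.03, 8.04, 7.87 and 8.26, and control arrays spread over more than 2 log2 units. The phosphate transporter gene Slc34a2 fell by 2.29 ± 0.24 in liver. Both were under the dim limit in spleen, with differences of 3.05 ± 0.43 and 2.49 ± 0.25. Usp2, a clock-controlled deubiquitinase gene, rose by 2.71 ± 0.32 in liver against -0.05 ± 0.11 in spleen. The immediate early gene Egr1 read 9.85, 9.73 and 7.03 in control and 6.36, 5.80, 6.41 and 6.20 in swim liver, and its level in array 52 stood far below the other controls. Its liver change of -2.68 ± 0.62 did not pass (limma adjusted p = 0.0595), while its difference of 2.58 ± 0.62 did (adjusted p = 0.0369). The stress gene Gadd45g likewise had a difference of 2.29 ± 0.56 (adjusted p = 0.0380) and a liver change of -2.49 ± 0.56 that missed the threshold.

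Heat shock chaperones rose in spleen. Of 16 tested 11 rose in spleen (against 5.62% of all genes) and 1 in liver (against 1.38%), and 7 had a difference above 0 (against 4.2%). Stip1, a cochaperone that links HSP70 and HSP90, read 9.57, 9.90, 9.93 and 10.22 in control and 10.80, 10.83, 11.07 and 10.77 in swim spleen, and 10.31, 10.57 and 10.21 in control and 10.32, 10.29, 10.28 and 10.41 in swim liver. Swim spleen lay above control spleen, and the liver groups overlapped. Stip1 rose by 0.96 ± 0.13 in spleen (limma adjusted p = 0.0100), with a difference of 1.003 ± 0.16 (adjusted p = 0.00199). Differences of the HSP90 gene Hsp90aa1, its activator Ahsa1 and the HSP70 partner Dnaja1 were 0.71 ± 0.14, 0.71 ± 0.13 and 0.71 ± 0.16. Hsph1, an HSP70 exchange factor gene, rose by 1.64 ± 0.30 in spleen and changed by 0.77 ± 0.23 in liver, a difference of 0.88 ± 0.38 (95% interval 0.08 to 1.67) that did not pass. With the values as deposited 4 of 16 rose in spleen and 0 differences passed, and with arrays centred on medians 7 rose and 1 difference passed. The Hsph1 promoter (chr5:149636266-149636565, minus strand, RefSeq, GRCm38.p6) is shown because this gene had the largest rise of the list. Capitals mark a match on the opposite strand to the heat shock element, which is GAA, TTC and GAA with any 2 bases between the units.
Hsph1: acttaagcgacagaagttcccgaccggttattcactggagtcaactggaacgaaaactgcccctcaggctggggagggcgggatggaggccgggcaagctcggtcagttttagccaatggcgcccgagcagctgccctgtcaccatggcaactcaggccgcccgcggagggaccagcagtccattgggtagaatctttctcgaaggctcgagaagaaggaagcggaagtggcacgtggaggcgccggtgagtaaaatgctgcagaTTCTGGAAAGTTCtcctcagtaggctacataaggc
The motif is held by 4 of 14 list genes with a window (28.6%), by 0.576% of tested genes with a window and by 0.603% of all windows.

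Platelet genes fell in spleen, and 6 of them had a difference below 0 (against 5.35% of all genes). Of 10 megakaryocyte and platelet genes 9 fell in spleen (against 5.96% of all genes) and 0 in liver (against 1.76%) by limma (1 in liver at an unadjusted p under 0.05), where Pf4 and Gp9 stood between 5.40 and 5.94. Pf4, platelet factor 4, read 9.69, 9.22, 9.55 and 9.80 in control and 8.65, 8.47, 8.19 and 8.50 in swim spleen, without overlap. It fell by 1.11 ± 0.14 (limma adjusted p = 0.00902), and the differences of Pf4 and of the glycoprotein gene Gp9 were -1.15 ± 0.18 and -1.28 ± 0.20.

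**Figure D5:**
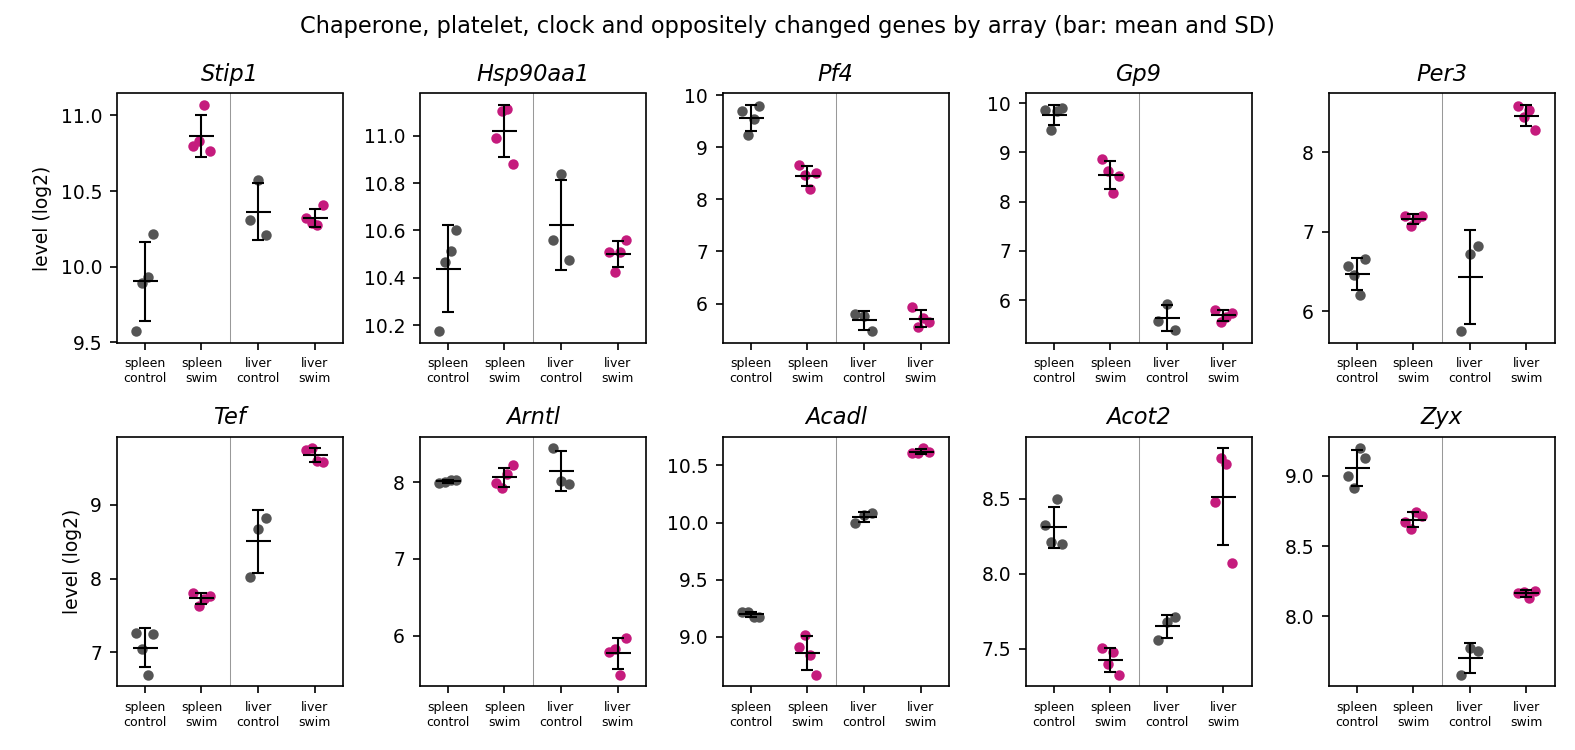
Levels (log2 of intensity + 16) on each array for chaperone genes (Stip1, Hsp90aa1), platelet genes (Pf4, Gp9), clock genes (Per3, Tef, Arntl) and oppositely changed genes (Acadl, Acot2, Zyx) in control (grey) and swim (magenta) spleen and liver; bars give the mean and SD of 3 or 4 arrays, and each panel has its own axis. Stip1, Hsp90aa1, Pf4 and Gp9 separate in spleen alone, Per3 and Tef rise in both organs, Arntl drops below 6 in swim liver, and Acadl, Acot2 and Zyx fall in spleen and rise in liver.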

How the data were processed

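Whole-organ RNA was measured on Affymetrix arrays. The deposited values are linear intensities summarised by the authors with PLIER, and limma is also named, per the submitters' processing notes; settings, versions and the annotation build are not given in the sources used here. Here 16 was added, log2 taken and arrays quantile normalized within each organ (R 4.3.3, limma 3.58.1). Of 25917 probe sets 21086 had 1 gene symbol, 1867 several and 2964 none; 21057 matched RefSeq through Entrez ID, and 0 symbols changed. The brightest probe set of a gene was kept, and genes in the lowest 40% of levels in both organs were left out. Each organ was fitted alone with lmFit and eBayes, the difference of the 2 changes was tested with the degrees of freedom of both fits combined, and p-values were Benjamini-Hochberg adjusted over 12644 genes. The number of arrays limits the precision.

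Of 445 distinct names on 27 lists 390 matched and 364 were tested. Genes named were the 10 widest differences in each direction, the 10 shared falls and rises with the smallest larger p, up to 10 opposite changes, members of the main lists that passed, and up to 4 of each other list, of which the text gives a part. The members and lists were chosen with earlier results of these data known. Promoter windows came from RefSeq (GRCm38.p6). Alternatives changed the scaling, pseudocount, dim filter, probe set rule, spread model, weights and arrays. The procedure was tested on simulated data.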

Additional observations from a re-analysis of the deposited data

Results flagged for a closer look

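Single arrays stood apart from the rest of their group in 15 of 324 gene groups and 3 of 81 list groups checked. Chance gives about 1 in 20, so neither count was above chance. Control liver, with 3 arrays, was not among the groups checked, so array 52 was not judged. Liver swim array 56 was lowest for macrophage genes, with C1qb at 8.61, Cd5l at 8.20, Adgre1 at 7.34 and Cd68 at 6.82. In liver swim, Camp at 4.99 and Lifr at 11.38 stood apart on array 54, Pklr at 12.10 on array 53 and Lrrc8d at 8.48 on array 55. In spleen swim, array 30 was high for Oas3 at 7.69 and low for Clec4f at 5.02 and Cd177 at 5.85. Array 31 was low for Folr2 at 4.71 and for the mean of mesothelial genes at 6.02. Array 32 was low for the mean of neutrophil surface and precursor genes at 6.10 and high for that of skeletal muscle genes at 6.07. In control spleen, array 26 was low for Csf1r at 10.08 and Gp9 at 9.46, and array 27 was high for Stat3 at 10.02. These gaps are given as a description, since they were no more frequent than chance gives, and their cause was not tested.

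The swim change differed between spleen and liver for 63 of 108 genes named, by limma with Benjamini-Hochberg adjustment over all genes. Given as spleen change less liver change (log2), the interferon-induced genes were Parp14 0.39, Oas3 -0.86, Herc6 0.55, Irgm1 0.62, Gbp4 0.56 and Psmb9 0.45. Macrophage genes were Folr2 0.68, Clec4f 0.87, Timd4 0.73, Marco -0.75 and Ctss 0.64. Neutrophil genes were Ngp -3.03, Ltf -2.36, S100a8 -2.55, S100a9 -2.27, Camp -1.24, Elane -1.46, Mpo -1.06, Chil3 -1.19, Cd177 -0.75 and Retnlg -2.63. Acute phase genes were Saa3 1.497, Stat3 0.51, Lifr 0.37, Mt1 -1.70, Hamp2 -4.12, Serpina3n 0.54 and Lbp 1.11. Clock genes were Npas2 0.85, Per2 -0.95, Per3 -1.34, Ciart -3.01, Arntl 2.42 and Clock 0.69. Genes that rose in both organs outside the clock were Lepr -1.27 and Ankrd12 -0.40, and genes that moved in opposite directions Acadl -0.91, Acot2 -1.75, Pklr -2.09, Chka 1.40 and Zyx -0.83. Chaperone genes were Stip1 1.003, Hsp90aa1 0.71, Ahsa1 0.71 and Dnaja1 0.71, and platelet genes Pf4 -1.15 and Gp9 -1.28. Endothelial genes were Plvap -0.99, Robo4 -0.80 and Lyve1 -0.93, T cell genes Cd3d 0.57, Cd3g 0.60, Cd8b1 0.56 and Cd4 1.08, and the cell cycle gene Tk1 -1.23. Of the 16 genes on the T and natural killer cell list, 2 were above the dim limit in liver. The remaining genes changed mainly in liver and were Cyp4a14 -3.85, Rgs16 -3.21, Mfsd2a -3.18, Usp2 -2.77, Slc34a2 2.49, Ugt2b37 3.05, Egr1 2.58 and Gadd45g 2.29.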

How the results depend on the processing

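All counts moved with some settings. With the values as deposited, 4800 genes changed in spleen, 158 fell and 10 rose in both organs, 859 fell more in spleen and 40 moved in opposite directions, against 1465, 47, 17, 291 and 17. Arrays centred on medians gave 537 differences between organs (1207 in the main setting) and 57 stronger falls in liver (101). A pseudocount of 1 gave 258 changes in liver (398), 28 shared falls, 62 stronger falls in liver and 9 opposite changes, and a pseudocount of 64 gave 629, 63, 185 and 32. No dim filter gave 10 shared rises and 10 opposite changes. A pooled spread gave 1028 changes in liver, 31 shared rises, 251 stronger falls in liver and 59 opposite changes, and trend and robust options gave 674 in liver, 175 and 35. Without spleen control 26 and liver control 52 there were 674 changes in spleen, 31 shared falls, 10 shared rises, 166 stronger falls in spleen and 5 opposite changes, and the hepatocyte covariate gave 868 and 10. Both were chosen after seeing the data. Leaving out 1 array at a time gave 449 to 1870 changes in spleen, 101 to 517 in liver, 785 to 1576 differences, 7 to 57 shared falls, 8 to 18 shared rises, 122 to 525 stronger falls in spleen, 35 to 154 in liver and 2 to 28 opposite changes. The lowest spleen count came without control 25 and the lowest liver count and number of shared falls (7) without control 49, and the cause was not tested. Of 207 results for single genes 110 kept direction and call in all fits without 1 array in which the gene was tested. Of these, 88 also kept them in all alternatives in which the gene was tested. Serpina3n in spleen reversed with the values as deposited, at -0.056 (limma adjusted p = 0.706). No paired analysis was possible because the labels do not say which arrays came from the same mouse. Levels under the dim limit, as for granule genes in liver and Clec4f in spleen, limit what a missing change shows.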

Other observations

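Of 14 endothelial genes tested 4 fell in spleen (against 5.96% of all genes) and 0 in liver (against 1.76%) by limma (9 and 0 at an unadjusted p under 0.05), and 3 had a difference below 0 (against 5.35%). Plvap, which forms the diaphragms of fenestrae, fell by 0.73 ± 0.11 in spleen against a change above 0 in liver (0.25 ± 0.07). Its difference was -0.99 ± 0.13 (adjusted p = 6.48e-04). Robo4, an endothelial guidance receptor gene, and Lyve1, a hyaluronan receptor gene of sinusoids, had differences of -0.80 ± 0.13 and -0.93 ± 0.18. Lyve1 was under the dim limit in spleen, at 5.88, 6.51, 6.11 and 6.08 in control and 5.37, 5.71, 5.50 and 5.42 in swim arrays.

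Of 16 T and natural killer cell genes tested 4 rose (Cd3d, Cd3g, Cd8b1, Cd28) and 2 fell (Ncr1, Gzma) in spleen, against 5.62% and 5.96% of all genes. These directions moved with the scaling, since 1 rose and 3 fell with arrays centred on medians, and 4 fell with the values as deposited. The receptor chains Cd3d and Cd3g rose by 0.50 ± 0.09 and 0.41 ± 0.06, and Cd8b1, a chain of the CD8 coreceptor, by 0.40 ± 0.09. With the values as deposited these changes were 0.18, 0.10 and 0.09 and did not pass, and the list median in spleen turned from 0.20 to -0.09. Of the 16 genes, 2 were above the dim limit in liver, where Cd3d read between 4.67 and 4.97 and Cd3g between 4.83 and 5.37. Differences of genes under the limit do not show that the organs responded otherwise. Cd4, carried by T cells and also by some macrophages, fell by 0.81 ± 0.12 in liver against a change above 0 in spleen (0.27 ± 0.08). Its difference was 1.08 ± 0.15 (adjusted p = 8.72e-04). B cell genes had medians of 0.06 in spleen and -0.24 in liver, and 0 of 11 passed in either organ by limma (4 above and 1 below 0 in spleen, and 4 below 0 in liver, at an unadjusted p under 0.05). In liver 3 of the 11 were above the dim limit.

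Of 22 cell cycle genes 5 fell and 1 rose in liver (against 1.76% and 1.38% of all genes), and 0 passed in spleen by limma (13 below 0 at an unadjusted p under 0.05), with medians of -0.54 and -0.44. The helicase subunit gene Mcm4 fell by 0.55 ± 0.08 in liver, and its partner Mcm6 fell by 0.57 ± 0.10, with spleen changes of -0.29 ± 0.12 and -0.29 ± 0.14 that did not pass. Tk1, the thymidine kinase of dividing cells, rose by 0.82 ± 0.13 in liver against -0.41 ± 0.12 in spleen, a difference of -1.23 ± 0.18 (adjusted p = 7.39e-04). Erythroid genes had a median change of -0.78 in spleen, where 0 of 11 passed by limma and 4 were below 0 at an unadjusted p under 0.05.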
